A study of Mus musculus with 4 samples.

Results

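The 50 mitosis, kinetochore and cohesion genes described here were chosen by name for what their proteins do in chromosome segregation. The rule uses no measured value, but the list was drawn up with earlier results of these data known. All 50 names were found, each once, among the 46983 gene IDs of the expression tables, and all 50 were among the 16972 genes that were tested. In larynx tissue of E10.5 mouse embryos none of the 50 passed the test for a difference between Shh-/- and wild-type (WT) tissue. Of all tested genes 0.725% did. On average 37 of the 50 were lower and 13 higher in Shh-/- tissue (41 and 9 with each library centred on its median). Over all 16972 tested genes 7077 were lower and 9895 higher. Among the 50 the gene with the largest difference was *Ncapd2*, a condensin subunit, at 1.84 times its WT level on the log2(TPM + 1) scale. The median gene of the 50 was 14.5% lower in Shh-/- tissue.

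The study compared bulk RNA of whole larynx tissue from Shh-/- and WT embryos at E10.5, with 32 to 35 somites, to ask which genes depend on Hedgehog signaling in the larynx. Each library was 1 pool of 3 larynxes, with 2 Shh-/- pools (numbered 1 and 2) and 2 WT pools (numbered 4 and 6). The mutant pools carried the germline allele Shhtm1amc and both groups were of the Swiss Webster stock, with no other allele or agent in the labels. The genotype tag of the mutant pools reads Shh+/-, whereas the study's design and methods give Shh-/-, which is used here. Whole tissue holds epithelium, mesenchyme, nerve, blood and other cells in 1 extract, so fewer cells of a type and less RNA per cell cannot be told apart.

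Dividing cells copy their chromosomes, hold the sister copies together with cohesin rings, fold them with condensin and topoisomerase, attach them to spindle microtubules through kinetochores built on the centromere, and release them only once the spindle checkpoint is satisfied. The release depends on the anaphase-promoting complex (APC/C), which marks securin and the B cyclins for destruction, so that separase can cut cohesin. Most of these genes are transcribed in the G2 and M phases and are low in cells that have stopped dividing, and in a growing organ such as the embryonic larynx their level in bulk RNA is widely read as a sign of how many cells are cycling. Cohesin genes are an exception, since the same ring also organises chromatin in cells at rest.

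The depth of the libraries, read from the ratio of coverage to FPKM, was 1.37 and 3.13 gigabases aligned for the mutant tissue and 2.85 and 2.97 gigabases for WT, so that Shh-/- pool 1 was the shallowest. The RNA integrity number was 8 and 7.7 in mutant and 7.7 and 9 in WT tissue (pool 6). *Shh* itself was at 10.4 and 10.8 TPM in the mutant samples compared with 23.7 and 42.1 in WT, and was lower but present in both mutant pools. The gene-level values do not show which exons those reads came from, so *Shh* checks the labels in part only. *Ptch1*, a Hedgehog target, was at 12.9 and 13.8 TPM in Shh-/- tissue, with WT tissue at 57.8 and 55.1. It passed the test as lower, with a log2 fold change of -2.00 (SE 0.12, limma adjusted p = 0.032). Among the cell type markers, the summed level of the 12 neuron markers was 800 and 878 TPM in Shh-/- tissue compared with 282 and 253 TPM in WT, with 4 of 12 called higher. The 11 muscle markers summed to 194 and 308 against 72.4 and 81.4 TPM, with all 9 tested higher in both mutant pools and 2 of the 9 called. *Myl2* was listed at 0 in every pool but Shh-/- pool 2, where it was at 0.60 TPM. In the same order the 11 epithelial markers summed to 741 and 640 against 673 and 688 TPM with 0 called, the 9 neural crest markers to 211 and 170 against 149 and 116 TPM with 1 called higher (*Ngfr*), the 10 mesenchyme markers to 1043 and 936 against 800 and 809 TPM with 1 higher (*Twist1*) and 1 lower (*Foxf2*), and the 9 erythroid markers to 11814 and 17913 against 16194 and 18340 TPM with 0 called. The sums hide opposite moves. Of the neuron markers 11 were higher and 1 lower, *Isl1*, at 68.3 and 57.3 TPM in Shh-/- tissue against 93.1 and 116 in WT. Of the 8 neural crest markers tested 7 were higher and 1 lower, *Ets1*. Of the epithelial markers 6 were higher and 5 lower. *Foxa2* was at 5.34 and 9.12 TPM in Shh-/- tissue against 29.2 and 39.8 in WT. *Nkx2-1* was at 6.16 and 3.61 against 15.9 and 17.9 TPM, while *Krt8* and *Epcam* were higher in both mutant pools. Of the mesenchyme markers 5 were higher and 5 lower, with *Foxf1* at 0.85 and 9.57 against 72.3 and 64.6 TPM. The part of these shifts in the values below was not tested.

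All 50 genes were well expressed. Their median level, as the mean over the 4 pools in TPM (a level corrected for transcript length and scaled to the same sum in each library), was 89.3 TPM, against 16.7 TPM for all tested genes. The lowest value of any of the 50 in any pool was 17.5 TPM (*Kif18a* in Shh-/- pool 2) and the highest was 729 TPM (*Top2a* in WT pool 6). In the ranking of all tested genes by mean level 41 of the 50 lay in the top 25% and 20 in the top 10%. In sum the 50 genes took 5456 and 5114 TPM in Shh-/- tissue, and 5645 and 6081 TPM of WT tissue. Both mutant sums were below both WT sums, with the WT pools differing from each other by more than the lower WT pool differed from the higher mutant pool.

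Differences between genotypes were fitted by limma on log2(TPM + 1), and p-values were adjusted over all 16972 tested genes. Of all tested genes 0.725% passed an adjusted p of 0.05, and 0.56% passed as higher in Shh-/- tissue. Of the 50 genes 0 passed in either direction, which is near that background share. That background was 123 genes in all, and it shrank to 0 without either of the Shh-/- pools, to 21 without WT pool 4 and to 16 without WT pool 6. The lowest adjusted p among the 50 was 0.071, for *Ncapd2*. At an unadjusted p under 0.05, 10 of the 50 were lower and 3 higher, where 7.22% of all tested genes were lower and 17.5% higher. These counts moved with single pools, to 18 lower without Shh-/- pool 1, 5 without Shh-/- pool 2, 8 without WT pool 4 and 3 without WT pool 6, and to 2, 2, 4 and 1 higher in the same order. Both mutant values were below both WT values in 27 of the 50 genes, beside 22.7% of all tested genes, and above both for 8 of the 50, beside 38% of all tested genes. The ranges overlapped for the remaining 15. The median log2 fold change of the 50 was -0.23, while that of all tested genes was 0.08. It was -0.13 without Shh-/- pool 2, -0.15 without WT pool 6 and -0.35 with median centring, which moves the median of all tested genes to -0.05. For 49 of the 50 the difference was smaller than 1.5-fold, and the standard errors ran from 0.09 to 0.38 on the log2 scale. With 2 pools against 2 an exact permutation test of a single gene cannot give a p below 0.33, so that each gene's p rests on the spread that limma shares across genes.

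**Figure D1:**
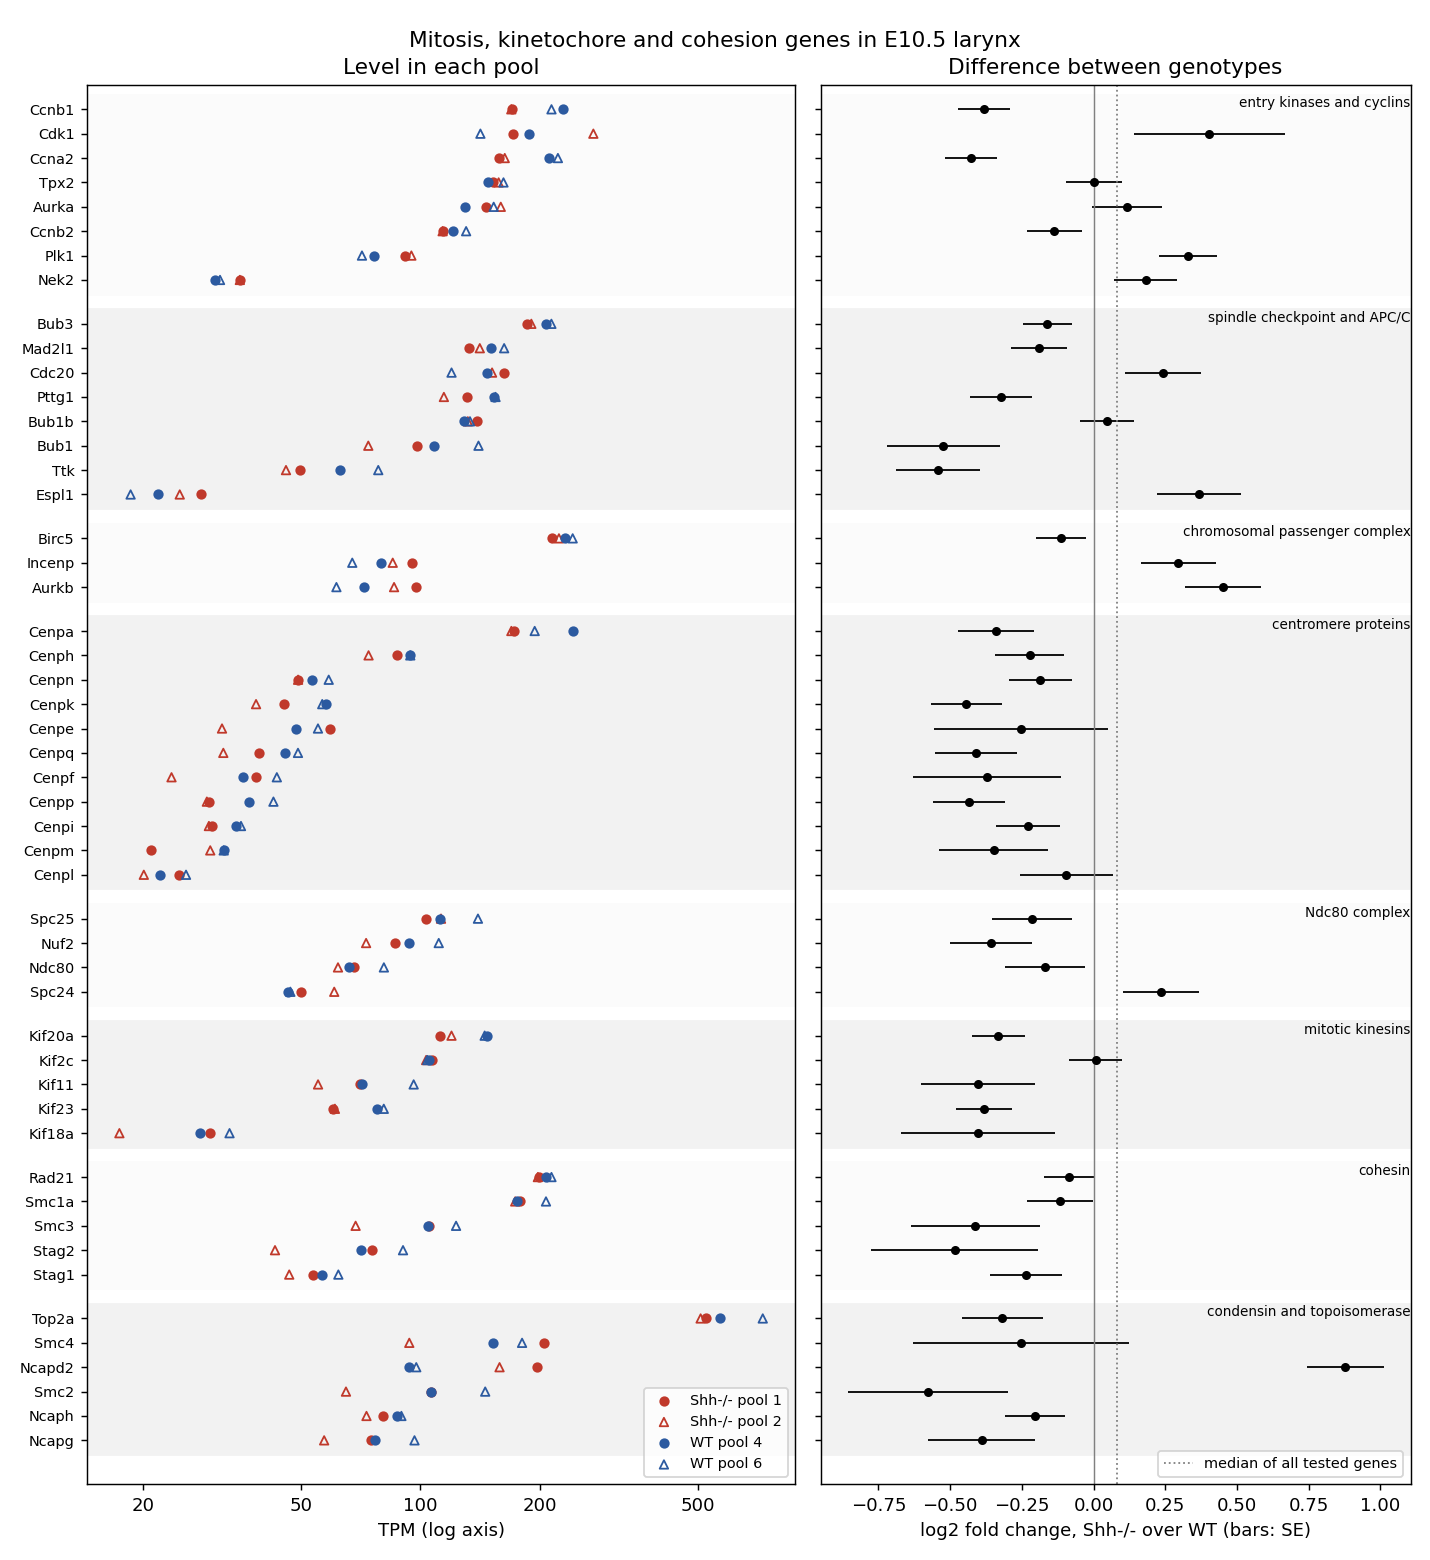
Left, the TPM of each of the 50 genes in each pool on a log axis, with red symbols for Shh-/- pools and blue for WT pools. Right, the log2 fold change of Shh-/- over WT with its standard error as bars and the median of all tested genes, 0.08, as a dotted line. The 11 centromere proteins and the 5 cohesin genes all sit below 0, and *Ncapd2* stands alone at 0.88.

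Entry into mitosis is driven by Cdk1 with its cyclins and by the Polo and Aurora kinases. Of the 8 genes of this group, 3 were lower and 5 higher in Shh-/- tissue, the median being 0.06 on the log2 scale, and of the 5 higher ones *Aurka* and *Tpx2* turned lower with median centring. *Ccnb1*, cyclin B1, was the highest of them. It lies at chr13:100778650-100786570 (mm10) and was at 169.8 and 169.5 TPM in mutant tissue against 229 and 214 in WT tissue. Both mutant pools were below both WT pools and nearly equal to each other. This was a log2 fold change of -0.38 (SE 0.09, limma adjusted p = 0.115), which did not pass. *Ccna2*, cyclin A2, which acts from S phase to early mitosis, was at 158 and 163 TPM in the mutant samples compared with 211 and 222 in WT, again without overlap. *Ccnb2*, the other mitotic cyclin B, was at 114 and 114 TPM in Shh-/- tissue, with WT tissue at 121 and 130.5, a smaller gap in the same direction. The ratio of *Ccnb1* to *Ccnb2* was 1.49 in each mutant pool and 1.90 and 1.64 in WT.

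*Cdk1*, the kinase that these cyclins activate (chr10:69336635-69352938), was at 171 and 273 TPM in mutant tissue against 188 and 142 in WT tissue. The 2 pools of each genotype were far apart and the genotypes overlapped. It had a log2 fold change of 0.40 (SE 0.26, limma adjusted p = 0.378), among the 5 largest of the 50, with Shh-/- pool 2 the highest. *Plk1*, the Polo-like kinase that triggers centrosome maturation and cohesin release (chr7:122159439-122169873), was at 91.4 and 95.0 TPM in the mutant samples compared with 76.7 and 71.3 in WT. Here the mutant pools were both above the WT pools, with a log2 fold change of 0.33 (SE 0.10, limma adjusted p = 0.152). With each library corrected for transcript GC content and length, *Plk1* stood at 0.035. *Aurka*, which builds the spindle poles, ranged from 130 to 160 TPM and *Tpx2*, its activator, from 148 to 162 TPM, both with overlapping genotypes. *Nek2*, a centrosome kinase, was the lowest of the group at 30.4 to 35.1 TPM.

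The spindle checkpoint delays anaphase while any kinetochore is unattached, by holding back the APC/C activator Cdc20. Of the 8 genes of the checkpoint and its targets, 5 were lower and 3 higher, of which *Bub1b* turned lower with median centring. *Ttk*, the kinase that starts checkpoint signaling (Mps1, at chr9:83834689-83872389), was at 49.8 and 45.9 TPM in Shh-/- tissue, with WT tissue at 62.6 and 78.4. Both mutant pools were lower, and a log2 fold change of -0.54 (SE 0.15, limma adjusted p = 0.133) was obtained. *Bub1*, a kinase that sits with it at the kinetochore (chr2:127801122-127831865), was at 98.4 and 74.0 TPM in mutant tissue against 108 and 140.2 in WT tissue. Again no mutant pool reached a WT pool, but the pools of each genotype were spread widely (log2 fold change of -0.52, SE 0.20, limma adjusted p = 0.195). *Bub1b*, the BubR1 component of the inhibitory complex, was by contrast level at 129 to 139 TPM in all 4 pools, and the ratio of *Bub1* to *Bub1b* was 0.71 and 0.56 in mutant against 0.84 and 1.05 in WT tissue. *Bub3*, the most abundant member of this group and a partner of both, was at 186 and 190.4 TPM in the mutant samples compared with 207 and 214 in WT, with a log2 fold change of -0.16 (SE 0.09, limma adjusted p = 0.308). *Mad2l1*, the Mad2 protein that binds Cdc20, had the mutant pools at 133 and 141 and the WT pools at 151 and 163 TPM. With the GC and length correction *Mad2l1* went from -0.19 to -0.053 and *Bub3* from -0.16 to -0.30.

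*Cdc20* itself went the other way, at 163 and 152 TPM in Shh-/- tissue, with WT tissue at 147 and 119.9. *Pttg1*, which encodes the separase inhibitor securin, was at 131 and 115 TPM in mutant tissue against 153 and 155 in WT tissue, while *Espl1*, separase (chr15:102296293-102324356), was at 28.0 and 24.8 TPM in the mutant samples compared with 21.9 and 18.6 in WT. Securin was thus lower in both mutant pools and separase higher in both. The ratio of *Espl1* to *Pttg1* was 0.21 and 0.22 in mutant and 0.14 and 0.12 in WT tissue. *Espl1* had a log2 fold change of 0.37 (SE 0.15, limma adjusted p = 0.210). None of these differences passed the test, and *Cdc20* and *Espl1* stood at -0.0063 and -0.011 with each library corrected for transcript GC content and length by a spline fit.

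The chromosomal passenger complex corrects wrong attachments and guides cytokinesis, and 3 of its genes are among the 50. The kinase and its activator were higher in mutant tissue and the third listed subunit was lower. None of them passed the test, and *Incenp* turned lower with the GC and length correction. *Aurkb*, the Aurora B kinase (chr11:69045647-69051664), was at 97.4 and 85.9 TPM in Shh-/- tissue, with WT tissue at 72.2 and 61.5. *Incenp*, the scaffold that activates it, was at 95.4 and 85.3 TPM in mutant tissue against 79.7 and 67.4 in WT tissue. In both genes the mutant pools lay above both WT pools, as they did in 38% of all tested genes. The second-largest estimate of the 50 belonged to *Aurkb*, with a log2 fold change of 0.45 (SE 0.13, limma adjusted p = 0.145). *Birc5*, survivin, the most abundant of the 3 genes, was at 214 and 223 TPM in the mutant samples compared with 232 and 242 in WT (log2 fold change of -0.11, SE 0.09, limma adjusted p = 0.446), so that *Aurkb* per *Birc5* was 0.45 and 0.38 against 0.31 and 0.25. *Cdca8*, a further subunit outside the 50, was at 129 and 114 TPM in mutant tissue against 112 and 94.6 in WT tissue. It was thus higher in both mutant pools, without passing the test.

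The centromere group was the largest of the 8, and its 11 listed genes were of 1 direction. All 11 genes were lower in Shh-/- tissue, at a median of -0.34 on the log2 scale. Both mutant pools were below both WT pools in 8 of the 11, beside 22.7% of all tested genes. None of the 11 passed, and *Cenpl* turned to 0.05 without Shh-/- pool 2 and to 0.0079 without WT pool 6. *Cenpa*, the histone H3 variant that marks the centromere (chr5:30666777-30674830), was the most abundant at 172 and 169.6 TPM in Shh-/- tissue, with WT tissue at 242 and 194, with a log2 fold change of -0.34 (SE 0.13, limma adjusted p = 0.202). The inner kinetochore subunits of the constitutive network on that chromatin lay at lower levels. Among them *Cenpk* (chr13:104228955-104249615) had the largest difference, at 45.3 and 38.6 TPM in mutant tissue against 57.8 and 56.7 in WT tissue. Mutant pools were both well below WT pools, and a log2 fold change of -0.44 (SE 0.12, limma adjusted p = 0.139) was obtained. With the GC and length correction *Cenpk* stood at -0.17 and *Cenph* at -0.043. *Cenpa*, *Cenpm* and *Cenpn* instead grew in size with it, to -0.51, -0.55 and -0.24. *Cenpp* was at 29.3 and 29.0 TPM in the mutant samples compared with 37.0 and 42.7 in WT, and *Cenpq* at 39.2 and 31.9 TPM in Shh-/- tissue, with WT tissue at 45.6 and 49.2. *Cenph*, *Cenpi*, *Cenpl*, *Cenpm* and *Cenpn* differed by log2 fold changes of -0.35 (*Cenpm*) to -0.09 (*Cenpl*). Centromere genes outside the 50 went both ways. *Cenpb* (0.53), *Cenpt* (0.35) and *Cenpo* (0.01) were higher, and *Cenpc1* (-0.27), *Cenpu* (-0.08) and *Cenpw* (-0.43) lower.

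The large kinetochore motor *Cenpe*, at 59.2 and 31.7 TPM in mutant tissue against 48.6 and 55.3 in WT tissue, and the very large coat protein *Cenpf*, at 38.6 and 23.6 TPM in the mutant samples compared with 35.7 and 43.5 in WT, overlapped between genotypes. In both genes Shh-/- pool 1 lay at or above a WT pool and Shh-/- pool 2 lay far below. Their log2 fold changes were -0.25 (SE 0.30) and -0.37 (SE 0.26), and without Shh-/- pool 2 that of *Cenpe* turned to 0.19.

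The Ndc80 complex is the rod that grips the microtubule, with *Ndc80* and *Nuf2* at the outer end and *Spc24* and *Spc25* at the inner end. *Spc25* was the most abundant at 103 and 113 TPM in Shh-/- tissue, with WT tissue at 112 and 139.7, with the genotypes overlapping (log2 fold change of -0.21, SE 0.14, limma adjusted p = 0.378). *Spc24*, its direct partner, was at 50.2 and 60.7 TPM in mutant tissue against 46.5 and 47.1 in WT tissue, higher in both mutant pools. Its log2 fold change was 0.23. With the GC and length correction *Spc24* stood at 0.081 and *Spc25* at -0.047. *Nuf2* had 86.4 and 73.1 TPM in the mutant and 93.6 and 111 TPM in the WT pools, and *Ndc80* overlapped. In sum 3 of the 4 genes were lower, and the ratio of *Nuf2* to *Ndc80* stayed within 1.18 to 1.41 over the 4 pools.

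Of the 5 mitotic kinesins 4 were lower, and *Kif2c* joined them with quantile normalization, median centring or FPKM. *Kif20a*, which works in cytokinesis, was the most abundant at 112 and 119.9 TPM in the mutant samples compared with 147 and 145 in WT, with no overlap and a log2 fold change of -0.33 (SE 0.09, limma adjusted p = 0.139). *Kif23*, a subunit of centralspindlin, was at 60.3 and 61.0 TPM in Shh-/- tissue, with WT tissue at 77.7 and 80.9, with the mutant pools nearly equal and both below the WT pools. *Kif11*, the Eg5 motor that pushes the poles apart, was at 70.5 and 55.3 in mutant and 71.4 and 96.3 TPM in WT pools. *Kif18a*, which damps chromosome movements, repeated the pattern of *Cenpe*, at 29.5 and 17.5 TPM in mutant tissue against 28.0 and 33.1 in WT tissue. *Kif2c*, a microtubule depolymerase at the centromere, ranged only from 103 to 107 TPM.

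Cohesin holds sister chromatids together from S phase on. All 5 of its genes listed here were lower on average, by log2 fold changes of -0.48 to -0.09. The genotypes overlapped for 3 of the 5, beside 6663 of all 16972 tested genes. *Smc1a* turned to 0.0033 without WT pool 6. *Rad21*, the kleisin that separase cuts (chr15:51962605-51991760), was the most abundant and the steadiest, at 199 and 198 TPM in the mutant samples compared with 207 and 214 in WT (log2 fold change of -0.09, SE 0.09, limma adjusted p = 0.554). *Stag2*, 1 of the alternative STAG subunits (chrX:42149317-42277185), was at 75.5 and 43.1 TPM in Shh-/- tissue, with WT tissue at 71.1 and 90.5. Shh-/- pool 1 lay between the WT pools and Shh-/- pool 2 below all the others (log2 fold change of -0.48, SE 0.29, limma adjusted p = 0.349). Its paralog *Stag1* was at 53.8 and 46.8 TPM in mutant tissue against 56.5 and 62.2 in WT tissue. The ratio of *Stag2* to *Stag1* was 1.40 and 0.92 in mutant pools and 1.26 and 1.45 in WT pools. *Smc3* showed the same low value in Shh-/- pool 2 alone, at 105 and 68.7 TPM in the mutant samples compared with 104 and 123 in WT, whereas *Smc1a*, which forms the ring with it, was at 178 and 173 TPM in Shh-/- tissue, with WT tissue at 175 and 207.

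Condensin shapes mitotic chromosomes through the *Smc2* and *Smc4* coiled-coil pair shared by both condensins and the condensin I subunits *Ncapd2*, *Ncapg* and *Ncaph*. *Ncapd2* (chr6:125168007-125191701) was at 197 and 158 TPM in mutant tissue against 93.7 and 97.7 in WT tissue. Both mutant pools were far above both WT pools, and the WT pools were close to each other. This was the largest difference of all 50 genes, with a log2 fold change of 0.88 (SE 0.13, limma adjusted p = 0.071), which fell short of the threshold of 0.05. Among the other 5 genes of the group none was higher. *Ncaph*, the kleisin that *Ncapd2* protein binds, was at 80.6 and 73.2 TPM in the mutant samples compared with 87.5 and 89.6 in WT, and *Ncapg* at 75 and 57.3 TPM in Shh-/- tissue, with WT tissue at 76.9 and 96.7. The ratio of *Ncapd2* to *Ncaph* was 2.44 and 2.16 in mutant and 1.07 and 1.09 in WT tissue, while *Ncapg* to *Ncaph* was 0.93 and 0.78 against 0.88 and 1.08. The small RNA gene *Scarna10* and the predicted gene *Gm28967* lie inside *Ncapd2* and reached at most 1.54 TPM.

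*Smc2* (chr4:52439243-52488260) had the lowest estimate of the 50. It was at 106 and 65.0 TPM in mutant tissue against 107 and 146 in WT tissue. Shh-/- pool 1 was level with WT pool 4 and Shh-/- pool 2 lay far below both (log2 fold change of -0.58, SE 0.28, limma adjusted p = 0.269). *Smc4* was at 205 and 93.8 TPM in the mutant samples compared with 152 and 180.5 in WT, so that 1 mutant pool was the highest of the 4 and the other the lowest, and its log2 fold change of -0.25 turned to 0.31 without Shh-/- pool 2. *Top2a*, the topoisomerase that untangles sister DNA and the most abundant of the 50 genes (chr11:98992943-99024189), was at 523 and 508 TPM in Shh-/- tissue, with WT tissue at 567 and 729. Its mutant pools were close to each other and below both WT pools, and a log2 fold change of -0.32 (SE 0.14, limma adjusted p = 0.238) was obtained.

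**Figure D2:**
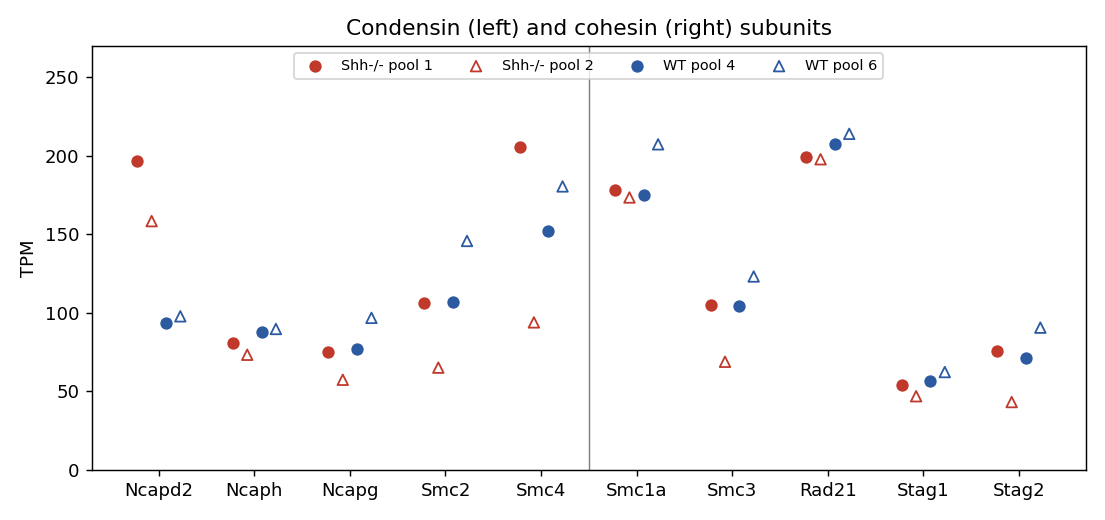
TPM of the 5 condensin genes (left of the line) and the 5 cohesin genes (right) in each pool, on a linear axis from 0. *Ncapd2* is the gene with both Shh-/- pools well above both WT pools, and *Smc2*, *Smc4*, *Smc3* and *Stag2* have Shh-/- pool 2 alone at the bottom.

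The spread between pools of 1 genotype was as large as many of these differences. The 2 Shh-/- pools differed from each other by more than the genotypes did for 16 of the 50 genes, and the 2 WT pools did so for 11. Differences of more than 0.5 on the log2 scale between the Shh-/- pools occurred in 8 genes, and between the WT pools in 0. In 7 of those 8 genes, *Smc4*, *Cenpe*, *Stag2*, *Kif18a*, *Smc2*, *Cenpf* and *Smc3*, Shh-/- pool 1 was the higher, and in *Cdk1* it was the lower. The 8 genes have long transcripts, with a median of 5788 bases against 3559 bases for the 50. WT pool 6 held the highest value of the 4 pools for 32 of the 50 genes, and Shh-/- pool 2 the lowest for 29. WT pool 6 also had the highest RNA integrity number, and the part of RNA quality was not tested. For 10 of the 50 genes a gene on the other strand overlaps and reached 5 TPM or more, among them *Exosc9* at *Ccna2*, *Elovl1* at *Cdc20* and *Lcorl* at *Ncapg*. The libraries were stranded, but whether strand was used in the quantification is not given in the sources used here. The pseudogene *Ccnb2-ps*, named as a copy of *Ccnb2*, had 14.4 and 4.93 TPM in mutant and 6.02 and 11.2 TPM in WT tissue, so that reads of *Ccnb2* may be split.

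**Figure D3:**
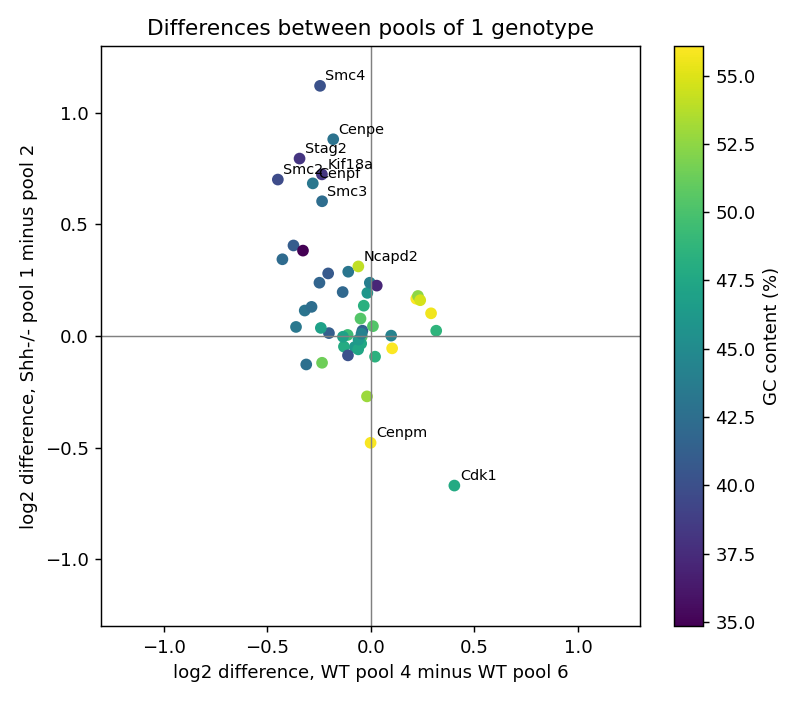
Log2 difference between the WT pools (4 minus 6, horizontal) and between the Shh-/- pools (1 minus 2, vertical) for each of the 50 genes, coloured by the GC content of the longest transcript. The long, AT-rich genes *Smc4*, *Cenpe*, *Stag2*, *Kif18a*, *Smc2*, *Cenpf* and *Smc3* stand at the top left, and *Cdk1* at the bottom right.

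The direction of the genotype difference went with the base composition of the transcript. The GC content of the longest annotated transcript of the 50 genes ran from 34.8% (*Ncapg*) to 56.1% (*Espl1*). All 25 genes under 45% GC were lower in Shh-/- tissue, with a median log2 fold change of -0.37. Of the 13 genes at 45 to 50% GC, 11 were lower, the exceptions being *Cdk1* and *Tpx2*. Of the 12 genes at 50% GC or more, 11 were higher, with a median of 0.24, and *Cenpm* was the 1 that was lower. Over the 50 genes GC content and log2 fold change had a Pearson r of 0.73 and a Spearman rho of 0.72. These points share the same 4 libraries, and genes are not independent replicates, so the coefficients describe these libraries only.

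A relation of the same sign ran through the whole table. Among all tested genes at 50% GC or more 6126 of 8051 were higher, with a median of 0.26, and among those under 45% GC 3018 of 4392 were lower, with a median of -0.16, and r was 0.33 over 16887 genes. Between the WT pools (4 minus 6) the log2 difference and GC content had an r of 0.65 over the 50 genes and of 0.23 over the 16887. Between the Shh-/- pools (1 minus 2) r was -0.51 over the 50 genes and -0.07 over the 16887. After each library was corrected for GC content and transcript length, 44 of the 50 genes were lower and 6 higher, with a median of -0.19 against -0.01 for all genes, and 0 of the 50 genes passed. With that correction *Ncapd2* stood at 0.55 with a limma adjusted p of 0.133, and over all its alternatives its adjusted p ran from 0.058 with FPKM to 0.267 without WT pool 6.

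**Figure D4:**
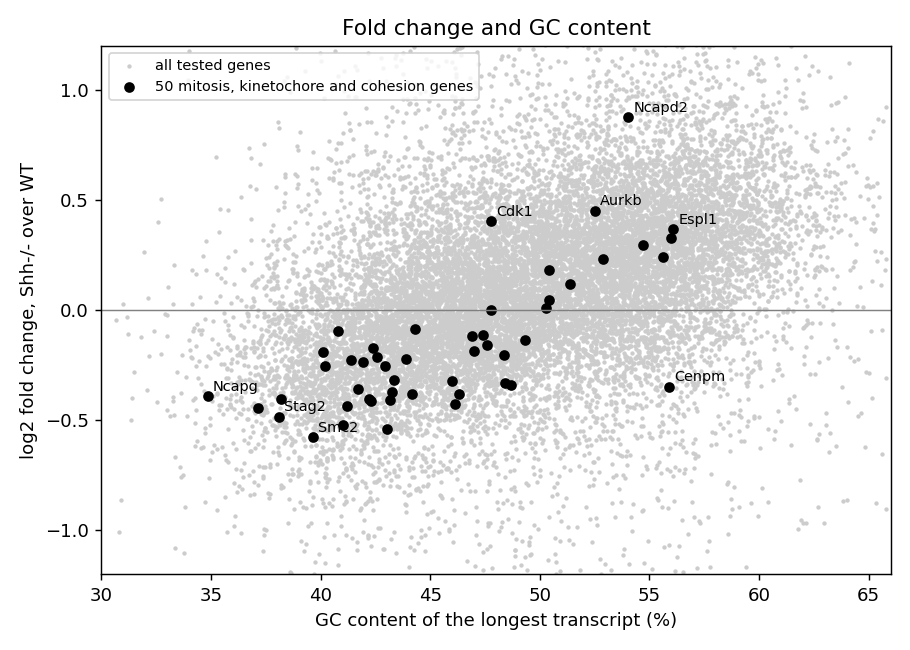
Log2 fold change of Shh-/- over WT against the GC content of the longest transcript, for all tested genes in grey and the 50 genes in black. Genes outside the drawn ranges are not shown. The 25 black points left of 45% GC all lie below 0, and right of 50% only *Cenpm* does.

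Other genes of the same machinery also gave no call, but their directions were more even than those of the 50. Of 86 further mitosis genes on a list of regulators, checkpoint, kinetochore and spindle proteins, 83 symbols were found and tested and 0 passed, with 49 lower and 34 higher and a median log2 fold change of -0.08. Their extremes among genes without overlap were *Ncapg2*, a condensin II subunit, at 21.1 and 16.2 TPM in mutant tissue against 27.8 and 36.8 in WT tissue, with a log2 fold change of -0.76 (SE 0.21, limma adjusted p = 0.134), and *Kifc1*, a minus-end kinesin, at 52.4 and 49.3 TPM in the mutant samples compared with 32.7 and 21 in WT, with a log2 fold change of 0.93 (SE 0.22, limma adjusted p = 0.118). The next were *Ckap5*, a microtubule polymerase, with a log2 fold change of -0.53 and *Ube2s*, an APC/C ubiquitin-conjugating enzyme, with 0.66. Of these 83 genes, 18 of the 21 at 50% GC or more were higher and 30 of the 36 under 45% GC were lower. DNA replication genes, which serve the phase before, had 31 of 45 lower with a median of -0.17 and again 0 called. Their extremes without overlap were *Fen1*, the flap nuclease, with a log2 fold change of -1.34, *Pola1* with -0.62, *Pold1* with 0.41 and *Rfc5* with 0.47. *Fen1* was at 18.7 and 113 TPM in Shh-/- tissue, with WT tissue at 118 and 119.7, a low value in Shh-/- pool 1 alone.

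The listed regulators of G2 and M genes numbered 21, activators and repressors together, of which 0 passed, with a median of 0.02. They were the MuvB core with *Mybl1*, B-Myb and FoxM1, the NF-Y trimer, E2F family members with *Tfdp1*, and *Rb1*, *Rbl1* and *Rbl2*. *Foxm1* was at 70.2 and 55.7 TPM in mutant tissue against 60.4 and 43.1 in WT tissue and *Mybl2*, B-Myb, at 29.2 and 24.2 TPM in the mutant samples compared with 34.9 and 25.8 in WT, and both overlapped between genotypes. *Lin54*, the MuvB subunit that binds DNA, was at 13.7 and 13.8 TPM in Shh-/- tissue, with WT tissue at 17.96 and 20.3, and *Lin9* at 25.7 and 21.8 TPM in mutant tissue against 29.4 and 32.2 in WT tissue. Both were lower in both mutant pools. *Nfya*, the NF-Y subunit that contacts the CCAAT box, was at 89.6 and 88.1 TPM in the mutant samples compared with 74.6 and 50.1 in WT, and *E2f8*, an E2F repressor, at 21.3 and 13.6 TPM in Shh-/- tissue, with WT tissue at 12.3 and 12.1, both higher in both mutant pools. Of 7 meiotic cohesion genes, 3 passed the level filter of 1 TPM and 0 were called. *Rec8*, the meiotic kleisin, was at 4.35 and 4.39 TPM in mutant tissue against 3.31 and 3.24 in WT tissue, and *Sycp1*, of the synaptonemal complex, was at 1.09 and 1.204 TPM in the mutant samples compared with 1.79 and 2.94 in WT.

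Promoter sequences were read because most of the 50 genes are of the kind transcribed in the G2 and M phases. The time of transcription was not measured here. RefSeq promoter windows on GRCm38.p6 covered 41 of the 50 genes, and the 250 bases before the start were searched on both strands. The motifs were the CCAAT box, which NF-Y binds, the cell cycle homology region (CHR) TTTGAA, which MuvB binds, its variants TTCGAA and TTTAAA, and the E2F-like words TTCGCGC and TTTCGCG as well as GGCGGGA. Matches of the E2F-like words can overlap, and each gene was counted once. *Bub3* and *Cenpk* had more than a single window, and a match in any of them counted. Shares are given beside those of all 27025 genes with a window and of the 10329 tested genes with a window, since all 50 genes are tested genes. A CCAAT box was found in 29 of the 41 genes (70.7%, against 37.5% of all and 40.6% of tested genes), and at least 2 boxes in 16 (39.0%, against 11.51% and 15.1%). TTTGAA was found in 13 (31.7%, against 18.3% and 12.4%), and both motifs together in 12 (29.3%, against 6.45% and 4.80%). The CHR variants were found in 9 (21.95%, against 15.04% and 11.98%). E2F-like words were found in 8 (19.5%), above the 12.6% of all genes but below the 24.2% of tested genes.

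The 4 stretches printed here, which hold no annotated exon, show how the motifs lie, each the last 120 bases before the start, 5′ to 3′ on the gene's strand, with CCAAT and TTTGAA on either strand in capitals (on the opposite strand they read ATTGG and TTCAAA). Each holds at least 2 CCAAT boxes within 120 bases. Other stretches without an exon, such as those of *Kif11* and *Stag1*, held 1 box and are not shown. The 4 belong to *Top2a* (chr11:99024190-99024309, minus strand), *Ccnb2* (chr9:70421555-70421674, minus strand), *Ttk* (chr9:83834569-83834688, plus strand) and *Spc25* (chr2:69206214-69206333, minus strand).
Top2a: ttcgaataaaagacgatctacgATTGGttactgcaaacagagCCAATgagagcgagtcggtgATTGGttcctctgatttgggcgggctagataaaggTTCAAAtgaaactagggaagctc
Ccnb2: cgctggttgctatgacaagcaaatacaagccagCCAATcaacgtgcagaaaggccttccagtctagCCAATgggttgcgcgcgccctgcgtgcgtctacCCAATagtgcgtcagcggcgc
Ttk: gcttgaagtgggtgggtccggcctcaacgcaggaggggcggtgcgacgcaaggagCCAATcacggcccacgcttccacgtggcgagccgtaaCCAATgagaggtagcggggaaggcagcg
Spc25: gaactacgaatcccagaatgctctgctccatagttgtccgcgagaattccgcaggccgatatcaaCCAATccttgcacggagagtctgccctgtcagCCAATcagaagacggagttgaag
*Top2a*, the most abundant of the 50, had CCAAT boxes starting 98, 78 and 58 bases before the start and TTTGAA at 23. *Ccnb2* had boxes at 87, 54 and 21, *Ttk* at 65 and 28 and *Spc25* at 55 and 23. A spacing of 31 to 34 bases between 2 box starts was looked at after these positions were seen. It occurred in 5 of the 41 genes, *Ccnb1*, *Ccnb2*, *Cdk1*, *Aurka* and *Spc25* (12.2%, against 1.25% of all genes with a window). *Ccnb2* and *Spc25* are among the stretches seen first, so this share is not a test. The share of tested genes was not computed. Genes with and without the motifs were mostly lower. Of the 13 genes with TTTGAA 8 were lower in Shh-/- tissue, of the 28 without it 24, and the medians of the log2 fold change were -0.14 and -0.29. With a CCAAT box 21 of 29 were lower, and without it 11 of 12.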

How the data were processed

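RNA-seq libraries were made from 4 pools of 3 E10.5 larynxes, 2 Shh-/- and 2 WT, from poly(A)-selected, stranded RNA (200 to 310 ng per pool) sequenced single-end. The authors aligned reads to mm10 with HISAT2 2.1.0 and quantified genes with StringTie 1.3.6. The annotation is not given in the sources used here. The deposited tables give, for each gene, the mean read coverage, not normalized between libraries. The authors' FPKM is that coverage scaled by aligned bases, and the deposited TPM is FPKM scaled to a fixed sum in each library. No counts were used, so counting intervals could not be had, and the number of pools limits the precision. Nothing states whether the pools came from separate litters.

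TPM was summed per gene ID, and 16972 genes with a mean of at least 1 TPM were fitted by limma 3.58.1 in R 4.3.3 (lmFit, eBayes with trend) on log2(TPM + 1), Shh-/- minus WT, with Benjamini-Hochberg adjustment over all of them and a threshold of 0.05. Fold changes of low genes are understated by the pseudocount of 1. Aligned bases are the median ratio of coverage to FPKM over genes with 1 transcript. GC content and length are those of the longest GENCODE M21 transcript, for the 46488 of 46983 gene IDs that matched, and coordinates are those of the deposited tables (mm10). Promoters are RefSeq windows on GRCm38.p6, the same assembly.

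The 50 members and the other lists were chosen with earlier results of these data known. Genes named with full statistics are the 5 with the largest and the 5 with the smallest log2 fold change and the most abundant of each role group. Of other lists the extremes without overlap are named. Alternatives were quantile normalization, median centring, FPKM, a pseudocount of 0.1, no filter and a filter of 5 TPM. TPM was also rescaled without haemoglobin genes or without neuron, muscle and erythroid markers. Other fits used eBayes without trend or robust, GC and length correction by splines with 5 degrees of freedom, or protein-coding genes only. Each pool was also left out in turn, which leaves 1 pool of a genotype, assumed to vary like the others.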

Additional observations from a re-analysis of the deposited data

How the results depend on the processing

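In all 16 alternative fits 0 of the 50 genes passed an adjusted p of 0.05. At a looser threshold of 0.10 the fit as reported called 1 of the 50 (*Ncapd2*) and 858 of all tested genes. The count over all tested genes, 123, became 69 with a pseudocount of 0.1, 0 without a filter on TPM (5011 at an unadjusted p under 0.05), 189 with protein-coding genes only and 0 to 21 when a pool was left out. The median log2 fold change of the 50 kept its sign in every fit, from -0.35 with median centring to -0.13 without Shh-/- pool 2. Of the 800 estimates of single genes 28 changed sign, in 12 genes, none of them past the threshold.

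With the GC and length correction these turned: *Aurka* to -0.011, *Nek2* to -0.012, *Tpx2* to -0.15, *Bub1b* to -0.16, *Cdc20* to -0.0063, *Espl1* to -0.011, *Incenp* to -0.033, *Cenpl* to 0.0064 and *Kif2c* to -0.16. With median centring *Aurka* turned to -0.012, *Tpx2* to -0.13, *Bub1b* to -0.082 and *Kif2c* to -0.12. Quantile normalization turned *Tpx2* to -0.0012 and *Kif2c* to -0.0090, and FPKM turned them to -0.032 and -0.025. *Tpx2* went to -0.0029 without haemoglobin genes and to -0.0019 without neuron, muscle and erythroid markers. Leaving out 1 pool at a time gave ranges that crossed 0 for 7 genes, *Aurka* (-0.00086 to 0.23), *Tpx2* (-0.064 to 0.066), *Cenpe* (-0.69 to 0.19), *Cenpl* (-0.24 to 0.045), *Kif2c* (-0.014 to 0.030), *Smc1a* (-0.24 to 0.0033) and *Smc4* (-0.81 to 0.31). The cause was not tested. No paired analysis was possible because the groups share no replicate numbers.

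Libraries of 2 pools a genotype, without counts, limit what could be detected. The standard errors of the 50 genes reached 0.38, and the Shh-/- pools differed in depth, 1.37 against 3.13 gigabases aligned.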
